A study of Mus musculus with 6 samples.

Results

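The miRNAs described here are the miR-125 family (miR-125a and miR-125b, each with its 5p and 3p strand) with miR-99a, miR-99b and miR-100, which lie beside them in the mouse genome. They were chosen by probe name alone: 7 of the 566 mouse miRNA probes of the panel carry one of these names (mmu-miR-125a-5p, mmu-miR-125a-3p, mmu-miR-125b-5p, mmu-miR-125b-3p, mmu-miR-99a, mmu-miR-99b and mmu-miR-100; the species prefix is left out below). The samples were splenocytes of female mice of the lupus-prone NZB/WF1 strain, which spontaneously develop a disease like systemic lupus erythematosus. At 6 to 7 weeks of age the mice received an implant holding 17-beta estradiol (E2), an implant holding 17alpha-ethinyl estradiol (EE), a synthetic estrogen used in contraceptive pills that carries an added ethinyl group, or an empty implant (placebo), and the spleens were taken 9 weeks later. Each of the 3 groups held 2 samples, and miRNA molecules were counted by nCounter, an assay that tags each with a coloured barcode and needs no amplification. No source used here gives a dose. Whether a group's samples are from different mice is not stated in the labels, so p-values measure only the spread between these samples, which may be technical.

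miRNAs are short RNAs that pair with messenger RNAs, mainly through bases 2 to 8 (the seed), and lower the output of their targets. miR-125 is the vertebrate relative of lin-4 of Caenorhabditis elegans, the first miRNA described. In mouse blood formation miR-125a and miR-125b are known from stem and progenitor cells, where forced expression expands blood lineages and can cause leukaemia, and miR-125b is known to hold back the step from B cell to plasma cell by repressing Prdm1 (Blimp-1) and Irf4. miR-125b also targets Tnf, and miR-125a targets the T cell transcription factor KLF13 in human cells, where low miR-125a has been described in lupus. miR-99 and miR-100 repress the growth regulator mTOR.

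The mature sequences, from RefSeq on build GRCm38.p6, show which probes read members of one seed family and how close the molecules are. They run 5′ to 3′ and the seed is in capitals. The probe names miR-99a, miR-99b and miR-100 were read as the 5p strand, which older naming left without a suffix. The probe named miR-125b-3p had no entry of that name.
miR-125a-5p: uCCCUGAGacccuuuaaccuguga
miR-125b-5p: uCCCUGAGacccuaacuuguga
miR-351-5p: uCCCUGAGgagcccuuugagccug
miR-99a-5p: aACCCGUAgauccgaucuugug
miR-99b-5p: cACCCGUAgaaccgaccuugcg
miR-100-5p: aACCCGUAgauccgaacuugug
miR-125a-3p: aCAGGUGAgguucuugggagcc

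miR-125a-5p and miR-125b-5p share the seed CCCUGAG and their first 13 bases, then differ in sequence and in length (24 and 22 bases). On the panel this seed is otherwise carried only by miR-351, among the mature miRNAs in the RefSeq table, and miR-351 lies at a locus of its own on chromosome X. miR-99a, miR-99b and miR-100 share the other seed. miR-99a-5p and miR-100-5p differ by 1 base, U16A counted from the 5′ end of miR-99a-5p, so these probes must tell near-identical molecules apart. miR-99a-5p and miR-99b-5p differ at 4 bases, A1C, U11A, U16C and U21C. The seed of miR-125a-3p occurs in no other mature miRNA of the table.

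The genes form 3 clusters of the same build, each of a miR-99 or miR-100 gene, a let-7 gene and a miR-125 gene in this order. Mir99b, Mirlet7e and Mir125a lie within 692 bases on chromosome 17 (chr17:17830188-17830879), inside the span of Spaca6. Mir99a, Mirlet7c-1 and Mir125b-2 span 47.4 kb on chromosome 16 (chr16:77598936-77646343). Mir100, Mirlet7a-2 and Mir125b-1 span 50.6 kb on chromosome 9 (chr9:41531425-41582002), inside the long noncoding RNA gene Mir100hg. Mir125b-1 and Mir125b-2 encode the same mature miR-125b-5p, so its probe sums both loci.

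All 7 miRNAs were scarce in these splenocytes, close to the signal of probes without a target. The 8 negative control probes set a detection floor of 53.2 normalized counts (mean + 2 SD of their means over all samples), and 95 mouse miRNAs had a mean above it and were tested. Of the members, 3 were among them: miR-125b-5p, with a mean of 66.5 and rank 86 of 566, miR-125a-3p, with 56.5 and rank 92, and miR-125a-5p, with 54.5 and rank 94. The other 4 were below it, at means of 34.2 for miR-99a, 32.3 for miR-99b, 15.7 for miR-125b-3p and 7.33 for miR-100. None of these 4 rose above the highest negative control of its own sample in any sample. miR-351, the other carrier of the miR-125 seed, had a mean of 4.83. Levels of different probes are not compared further, since capture differs between probes. Summed normalized counts were 167152 to 205209 per sample. They follow normalization, so the depth of the raw counts is unknown and no counting interval is given. Markers of lymphocytes, the main cells of the spleen, were present, with 41204 to 50872 normalized counts summed over 4 lymphoid miRNAs in the placebo samples. The sum was lower with both estrogens, at 26813 to 28683 with E2 and 17275 to 18317 with EE. Most of it was miR-150, at 44123 and 35124 with placebo. Of the other lymphoid miRNAs, miR-155 stood at 111 and 204 with placebo, 94 and 57 with E2 and 20 and 159 with EE, so its EE and placebo samples overlapped.

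**Figure D1:**
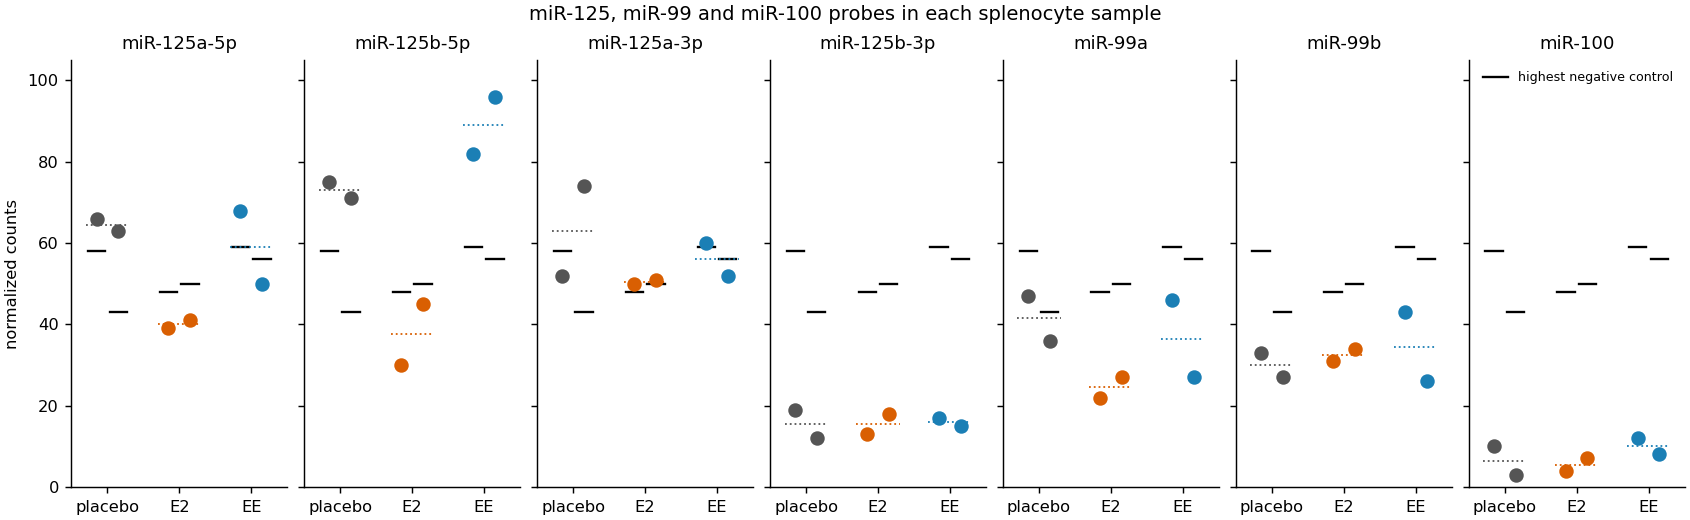
Normalized counts (linear axis from 0) of the 7 probes in the 2 samples of each group; each point is a sample, dotted lines are group means and short black lines mark the highest negative control probe of that sample. miR-125b-5p is below the black line in both E2 samples and above it in the other 4 samples, and miR-99a, miR-99b, miR-125b-3p and miR-100 are below it throughout.

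miR-125b-5p, the strand of miR-125b that acts on B cell and stem cell targets, was lower with E2 than with placebo and than with EE. It stood at 75 and 71 normalized counts with placebo, at 30 and 45 with E2 and at 82 and 96 with EE. Both E2 samples were below all other samples, and both EE samples were above both placebo samples. The group means were 73.0 ± 2.83 with placebo, 37.5 ± 10.6 with E2 and 89.0 ± 9.90 with EE (SD, n = 2 each).

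In limma's moderated test on log2(count + 1), adjusted by the Benjamini-Hochberg method over all 95 tested miRNAs, miR-125b-5p fell with E2 by 0.97 ± 0.24 (SE) on the log2 scale, a 1.96-fold difference, with an adjusted p of 0.0247. It was the only 1 of the 3 tested members called in that comparison, where 6.32% of all tested miRNAs were called lower. In that contrast the 95 tested miRNAs had a median of -0.20 on the log2 scale. Both E2 samples were under their own sample's floor of 46.8 and 47.7 normalized counts, so the size is uncertain. With E2 set to that floor, placebo was 1.53-fold higher, a point estimate without sampling error. The 95% interval of the limma log2 fold change was -1.51 to -0.43. The call was lost without E2 replicate 1, the lower of the E2 samples, at a log2 fold change of -0.69 and an adjusted p of 0.212, and also without either placebo sample, with adjusted p-values of 0.0636 and 0.0548.

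miR-125a-5p, the same-seed miRNA of a separate locus, was also lowest with E2, while its EE mean lay below its placebo mean. It stood at 66 and 63 normalized counts with placebo, 39 and 41 with E2, and 68 and 50 with EE. Both E2 samples were below the other 4, while the EE and placebo samples overlapped. With limma the log2 fold change of E2 against placebo was -0.68 ± 0.23 (SE), with a 95% interval of -1.19 to -0.16, an unadjusted p of 0.0150 and an adjusted p of 0.102, which did not pass the threshold of 0.05. Both E2 samples were again under the floor of their sample. When samples were rescaled by the housekeeping mRNAs, E2 against placebo passed at -0.88 (adjusted p 0.0194), and with ligation controls it was at -0.36 (adjusted p 0.813).

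miR-125a-3p, the opposite strand of the miR-125a hairpin with a seed of its own, varied less. It stood at 52 and 74 normalized counts with placebo, 50 and 51 with E2, and 60 and 52 with EE. The E2 samples were below the placebo samples by as little as 1 count, and the placebo samples differed from each other by more than the groups did. The limma log2 fold change was -0.29 with E2, with a 95% interval of -0.82 to 0.24 and an adjusted p of 0.402, and its direction turned with rescaling by ligation controls, to 0.022. With the mean of each sample's negative controls subtracted, miR-125a-3p overlapped, at 24.75 and 54.25 with placebo and 31.5 and 30.5 with E2. In all 3 tested members the E2 values as deposited lay below both placebo values, a separation that 45.3% of the tested miRNAs showed. The filter matters for this count, since it required a mean over all samples above the detection floor. The E2 means were below that floor, at 37.5 for miR-125b-5p, 40 for miR-125a-5p and 50.5 for miR-125a-3p. All 3 therefore passed only through higher placebo and EE values, so their shared direction follows in part from the filter.

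In the comparison of EE with placebo none of the 3 tested members was called by limma, where 26.3% of the tested miRNAs were called in either direction. Without adjustment none of the 3 had a p under 0.05 either, against 36.8% of the tested miRNAs. The log2 fold changes were 0.28 for miR-125b-5p (95% interval -0.26 to 0.82, adjusted p 0.433), -0.14 for miR-125a-5p (-0.66 to 0.37, adjusted p 0.633) and -0.15 for miR-125a-3p (-0.68 to 0.38, adjusted p 0.633). The intervals leave room for differences of either sign. miR-125b-5p was the only member whose EE samples were both above the placebo samples, as were those of 26.3% of tested miRNAs. Of the 8 negative control probes, 2 separated this way and 2 the other way. The sign for miR-125a-5p turned without EE replicate 2 (0.075), and that for miR-125a-3p without placebo replicate 2 (0.10).

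The direct comparison of the estrogens asked whether EE and E2, which differ by the ethinyl group, gave different levels, and the doses behind it are unknown. Of the members, miR-125b-5p was higher with EE than with E2, by 1.25 ± 0.24 (SE) on the log2 scale, a 2.38-fold difference, with a limma adjusted p of 0.0121. Of the 95 tested miRNAs, 3.16% were called higher. The E2 samples were under their floor. With E2 set to that floor, EE was 1.86-fold higher, a point estimate without sampling error. The limma 95% interval for miR-125b-5p was 0.71 to 1.79 on the log2 scale. miR-125a-5p was at 0.53 ± 0.23 (SE), with a 95% interval of 0.018 to 1.05 and an adjusted p of 0.231, and passed when samples were rescaled by housekeeping mRNAs, at 0.84 (adjusted p 0.0492). It was at 0.021 (adjusted p 0.954) with ligation controls and at 0.32 without EE replicate 1. Both its E2 samples were under their floor, as was EE replicate 2, at 50 against a floor of 58.5 normalized counts. With E2 set to its floor, EE was 1.23-fold higher for miR-125a-5p. miR-125a-3p was at 0.14, with a 95% interval of -0.39 to 0.67 and an adjusted p of 0.837, and at -0.37 with ligation controls. All 3 had both EE samples above both E2 samples, as did 26.3% of the tested miRNAs. So did 5 of the 8 negative control probes, while 0 separated the other way. With the mean of its sample's negative controls subtracted, miR-125a-3p overlapped, at 31.5 and 30.5 with E2 and 34.75 and 28.25 with EE. Here too the filter matters, since all 3 passed the floor through groups other than E2. The miR-125b-5p call was lost without E2 replicate 1, at 0.96 (adjusted p 0.107).

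The comparisons share samples: E2 against placebo and EE against E2 both rest on the 2 E2 samples, so the low E2 values of miR-125b-5p enter both. The negative controls also differed between groups. Their mean was 27.2 and 19.8 normalized counts with placebo, 18.5 and 20.5 with E2, and 25.2 and 23.8 with EE. For the 8 negative controls the median log2 difference of E2 against placebo was -0.27, with a range of -0.68 to 0.31, and that of EE against E2 was 0.24, with a range of -0.25 to 0.55. The miR-125b-5p differences of -0.97 and 1.25 lay outside these ranges. Those of miR-125a-5p lay just inside them, at -0.68 against placebo and 0.53 for EE against E2. The filter was not applied to the controls, while both members passed it only through their placebo and EE values. The ranges are therefore no test of these differences. With the mean of the negative controls subtracted from each sample, miR-125b-5p was at 47.8 and 51.2 normalized counts with placebo, 11.5 and 24.5 with E2, and 56.8 and 72.2 with EE. The E2 samples remained the lowest on that scale. The log2 fold changes were then -1.50 against placebo (adjusted p 0.0516) and 1.87 for EE against E2 (adjusted p 0.0269).

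**Figure D2:**
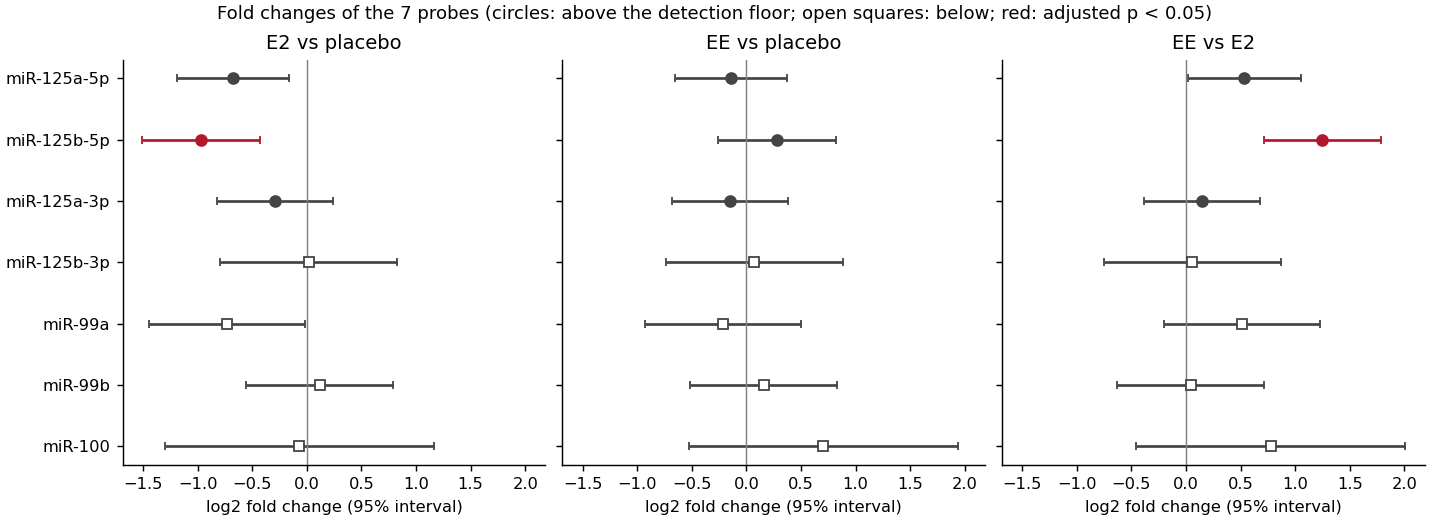
Log2 fold changes from limma with 95% intervals for the 7 probes in the 3 comparisons. Filled circles are the 3 probes above the detection floor, open squares the 4 below it (from a fit of all 566 mouse probes), and red marks an adjusted p under 0.05. Red appears for miR-125b-5p alone, at -0.97 for E2 against placebo and 1.25 for EE against E2.

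The miR-99 and miR-100 probes, below the floor, showed no call. miR-99a stood at 47 and 36 normalized counts with placebo, 22 and 27 with E2, and 46 and 27 with EE. The E2 samples were below both placebo samples, as were those of 18% of all 566 mouse probes, while EE replicate 2 had the same count as an E2 sample. In a limma fit of all 566 probes its log2 fold change with E2 was -0.73, with a 95% interval of -1.45 to -0.018 and an adjusted p of 0.496. miR-99b, from the cluster that also encodes miR-125a, stood at 33 and 27 with placebo, 31 and 34 with E2, and 43 and 26 with EE, and the groups overlapped. miR-100 ran from 3 to 12 normalized counts over the 6 samples, and miR-125b-3p from 12 to 19, with overlap between E2 and placebo in both. The EE samples of miR-100, at 12 and 8, were above its E2 samples, at 4 and 7, a separation that 5 of the 8 negative control probes also showed. The values of miR-100 and miR-125b-3p were within or below the range of the negative controls, so a difference was not detectable at this signal. In that fit 0 of the 7 members were called in any comparison (at an unadjusted p under 0.05 it was 3 with E2, 0 with EE and 2 between the estrogens), and miR-125b-5p had adjusted p-values of 0.183 with E2 and 0.167 for EE against E2. The same fit called 0.883% of the 566 probes with E2, 2.47% with EE and 0% between the estrogens, and at an unadjusted p under 0.05 the shares were 9.89%, 12.2% and 6.54%.

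The let-7 genes inside the clusters belong to a family known for restraining proliferation, and their probes were well above the floor, with let-7a at rank 14, let-7c at rank 21 and let-7e at rank 53 of the 566 mouse probes. let-7e, encoded between Mir99b and Mir125a, stood at 167 and 190 normalized counts with placebo, 127 and 144 with E2, and 167 and 181 with EE. As with miR-125a-5p, both E2 samples were the lowest. For let-7a and let-7c too, both E2 samples were below both placebo samples, a separation that 45.3% of the tested miRNAs showed. The limma log2 fold change of let-7e was -0.39 with E2 (adjusted p 0.221), -0.035 with EE (adjusted p 0.869) and 0.36 for EE against E2 (adjusted p 0.298). No comparison passed. let-7c was at -0.23 with E2 and 0.056 for EE against E2, and let-7a at -0.27 and -0.079, with adjusted p-values of 0.305 to 0.907. These signs depended on scaling. With ligation controls let-7a and let-7c turned to 0.044 and 0.088 with E2, and let-7c and let-7e to -0.47 and -0.16 for EE against E2. With housekeeping mRNAs let-7a turned to 0.23 for EE against E2 and let-7e to 0.071 for EE against placebo. let-7a and let-7c are each also encoded at loci outside these clusters, so their probes do not report the clusters alone.

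**Figure D3:**
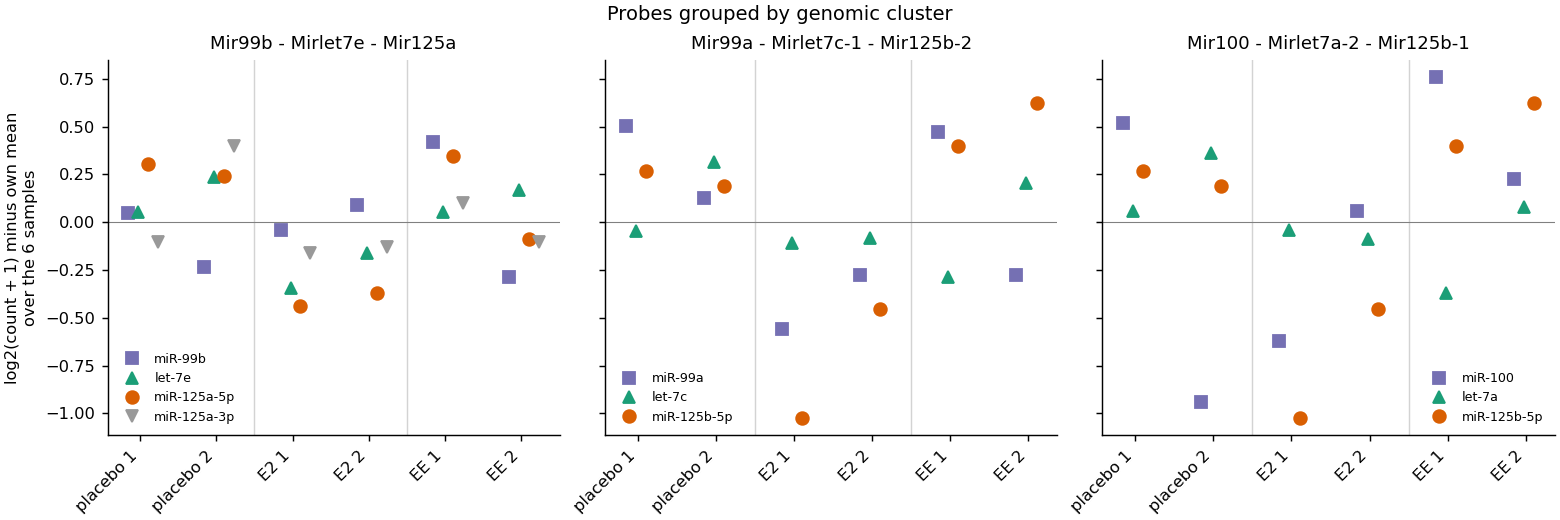
Log2(count + 1) of each probe minus its own mean over the 6 samples, for the probes of each genomic cluster; each point is a sample, and miR-125b-5p is drawn in both clusters that encode it. let-7e and miR-125a-5p are both below their mean in both E2 samples, and miR-125b-5p reaches its lowest value in E2 replicate 1 and its highest in EE replicate 2.

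To find the tested miRNAs whose pattern was most like that of each member, profiles of log2(count + 1) were centred on their own mean and compared by the root mean square difference over the 6 samples, as a description without a test. For miR-125a-5p the nearest of 94 miRNAs was let-7e, at 0.21, followed by miR-1900 at 0.21 and miR-200c at 0.22, against a median of 0.37 over all 94. For miR-125b-5p the nearest was miR-145, a miRNA of smooth muscle and other stromal cells, at 0.28, followed by miR-484 at 0.36 and miR-125a-5p at 0.38, against a median of 0.61. For miR-125a-3p the nearest were miR-423-3p, miR-200c and miR-1186, at 0.11 to 0.12, and miR-125a-5p from the same hairpin came 43rd. miR-125b-5p ranked 54th for miR-125a-5p. The profiles of miR-125a-5p and miR-125b-5p were furthest apart in EE replicate 2 and E2 replicate 1.

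miR-145 moved with miR-125b-5p between the estrogens. It was picked for its likeness to miR-125b-5p over these same 6 samples, so this agreement follows from the choice and is no separate support. miR-145 stood at 85 and 74 normalized counts with placebo, 58 and 63 with E2, and 123 in both EE samples. In limma it was higher with EE than with E2 by 1.01 on the log2 scale (adjusted p 0.0121), and E2 against placebo was at -0.39 (adjusted p 0.224). For EE against placebo miR-145 was also called higher, at 0.63 (adjusted p 0.0355), where miR-125b-5p was not called (0.28, adjusted p 0.433). Over the stromal list as a whole, 7 of 8 listed miRNAs were on the panel, 2 were above the detection floor, and 1 of these 2, miR-145, was higher with EE. The other, miR-10a, stood at 159 and 164 normalized counts with placebo, 119 and 204 with E2, and 121 and 108 with EE, with log2 fold changes of -0.49 for EE against placebo (adjusted p 0.166) and -0.44 for EE against E2 (adjusted p 0.340), neither past the threshold. No listed probe was at 0 in any sample. The summed level of the 7 was 317 to 330 normalized counts with placebo, 251 to 338 with E2 and 332 to 341 with EE, most of it from miR-10a and miR-145. miR-143, transcribed together with miR-145, was below the floor, at 17 and 31 with placebo, 16 and 13 with E2 and 25 and 30 with EE. The endothelial miR-126-3p was at 78 and 80 with placebo, 103 and 88 with E2, and 154 and 180 with EE, so its E2 samples were above placebo where those of miR-125b-5p were below. The part of stromal or vessel cells in the miR-125b-5p difference was not tested, and in these bulk samples fewer cells of a type and less RNA per cell cannot be told apart.

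**Figure D4:**
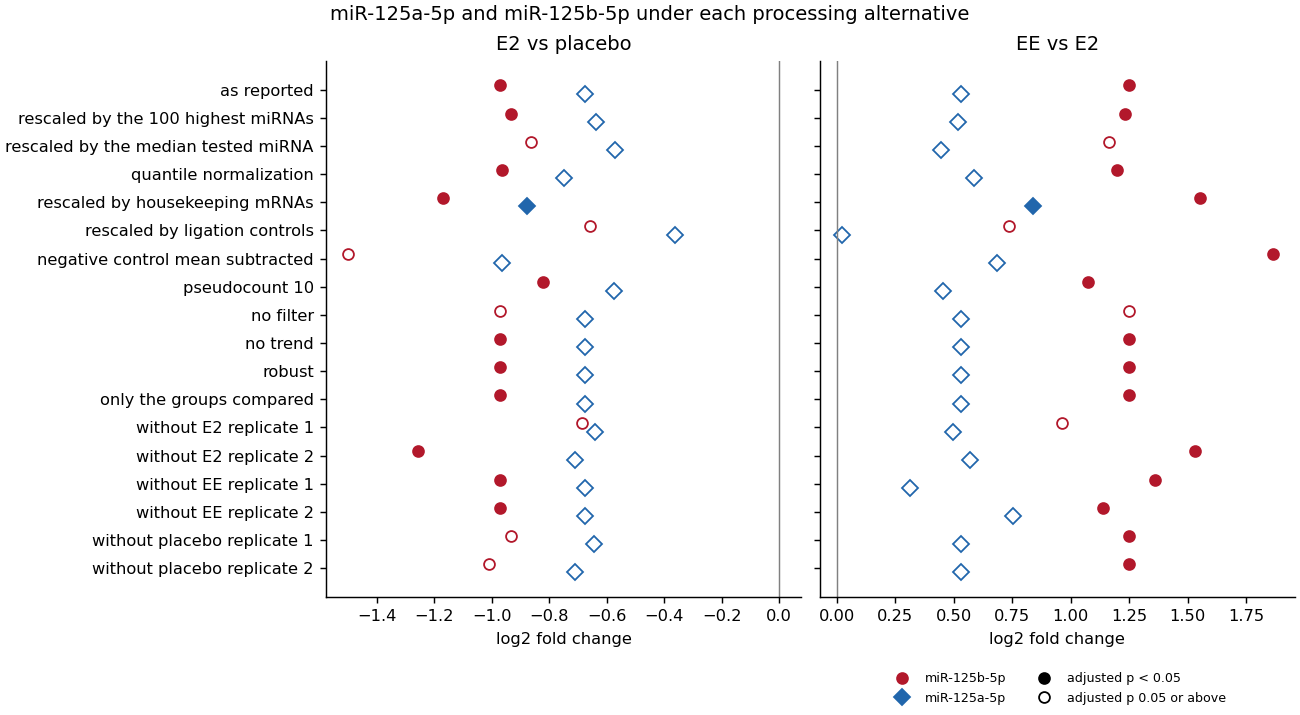
Log2 fold changes of miR-125b-5p (circles) and miR-125a-5p (diamonds) for E2 against placebo and EE against E2, as reported and under each processing alternative that could be applied; filled symbols have a limma adjusted p under 0.05. miR-125b-5p stays between -1.50 and -0.66 against placebo and between 0.74 and 1.87 between the estrogens, and its symbols are filled in only part of the settings.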

How the data were processed

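Total RNA of splenocytes was profiled on the nCounter mouse miRNA panel, per the labels. Each deposited value is a score in whole numbers, and no source used here says how the authors normalized, background-corrected or rounded it. Unevenly filled low whole numbers and near-equal geometric means of the 100 highest miRNAs (288 to 298) mark them as rescaled counts, so no count model was fitted, and they are called normalized counts. Differences were tested with limma 3.58.1 in R 4.3.3 (lmFit, eBayes with trend) on log2(value + 1), two-sided, with all 6 samples in 1 fit (10.5 degrees of freedom). The pseudocount understates changes of scarce miRNAs. With 2 samples a side an exact permutation test reaches no p under 0.333, so none was run; groups of 2 allow no outlier test. On simulated data for E2 against placebo over 95 miRNAs changes of 1 log2 unit were recovered in 80.4% of cases, and 3.53% of its calls were false. The simulation drew independent normal log2 values with the same spread for every miRNA and no background signal. These rates therefore need not hold for probes near the floor, such as the members. Named besides the members were cluster partners, seed sharers and the 3 nearest profiles per tested member. Members, lists and tests were chosen with earlier results of these data known. Alternatives covered scaling, background, pseudocount, filter, variance model, the groups in the fit and leaving out each sample, with the same tested miRNAs kept unless the filter itself was changed.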

Additional observations from a re-analysis of the deposited data

How the results depend on the processing

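Calls of miR-125b-5p rested on scaling, filter and single samples. Its direction against placebo with E2 and between the estrogens held in all 17 alternatives that could be applied. Several of these cannot change a fold change: no filter, the variance models, a fit of only the groups compared and leaving out a sample of the third group. The pseudocount and leaving out a sample of the compared groups could not turn the direction either, since both E2 values lay below all others. Only scaling and background subtraction could have turned it. A floor at mean + 3 SD of the negative controls, 68.5 normalized counts, left no member to test. E2 against placebo was no longer called with rescaling by the median tested miRNA (-0.86), by ligation controls (-0.66), with the negative control mean subtracted (-1.50) or without a filter (-0.97), and ran from -1.25 to -0.69 over fits that left out a sample. EE against E2 was no longer called with median rescaling (1.16), ligation controls (0.74) or no filter (1.25), and ran from 0.96 to 1.53 with a sample left out. miR-125a-5p was called with housekeeping mRNAs, at -0.88 for E2 against placebo and 0.84 for EE against E2, but was at -0.36 (adjusted p 0.813) and 0.021 (adjusted p 0.954) with ligation controls. With a sample left out it ran from -0.71 to -0.64 for E2 against placebo, 0.32 to 0.75 for EE against E2 and -0.36 to 0.075 for EE against placebo. miR-125a-3p turned to 0.022 for E2 against placebo and -0.37 for EE against E2 with ligation controls, and ran from -0.40 to 0.10 for EE against placebo with a sample left out. The number of members called with E2 was 0 with median rescaling, ligation controls, background subtraction or no filter and 2 with housekeeping mRNAs, and 0 to 1 with a sample left out; between the estrogens it was 0 with median rescaling, ligation controls or no filter, 2 with housekeeping mRNAs and 0 to 1 with a sample left out. Over all tested miRNAs, calls with E2 numbered 10, against 4 with median rescaling, 4 with ligation controls, 5 without a filter and 6 to 12 with a sample left out. Calls with EE numbered 25, against 15 with median rescaling, 16 with housekeeping mRNAs, 11 with ligation controls, 14 without a filter and 15 to 23 with a sample left out. Calls between the estrogens numbered 7, of which 3 were higher, against 0 with median rescaling, 3 with ligation controls, all lower, 0 without a filter, 12 in a fit of those 2 groups alone and 0 to 12 with a sample left out. Without a filter the same fold changes are adjusted over 566 probes; the cause of the other changes was not tested. Scaling moves all miRNAs alike: the median log2 fold change with E2 was -0.20 as deposited, -0.41 with housekeeping mRNAs and 0.12 with ligation controls. Relative to that median miR-125b-5p lay between -0.78 and -0.76, which follows from the scaling itself and is no test of the difference. No paired analysis was possible because the labels give the groups no shared replicate numbers.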
